A study of Homo sapiens with 24 samples.

Results

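Plate-grown MDA-MB-231 cells overexpressing the MRTF-A mutant labelled dSRF were compared with the plate-grown control line. MDA-MB-231 is an established human breast cancer cell line of mesenchymal appearance. The comparison took the libraries titled 2D dSRF MRTF-A OX, replicates 1 to 3, and those titled 2D Control, replicates 1 to 3, which are 6 of the 24 libraries of the series. Another 3 plate libraries came from cells overexpressing wild-type MRTF-A (WT) and 3 from a second mutant labelled dSAP, and the same 4 lines were also grown on matrigel, a basement membrane gel. All lines, control included, received 1 ug/ml doxycycline for 72 h to induce the transgene and were kept in 10% serum. The labels do not spell out dSRF or dSAP, and do not say whether a line was 1 clone or a pool. Uninduced libraries were not analysed here, so a change brought by the induced protein and a difference that the dSRF line carried before induction cannot be told apart. The labels also do not say that replicates were separate cultures, so the p-values measure the spread between these libraries, which may be technical.

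MRTF-A is a coactivator that monomeric actin holds in the cytoplasm. When actin polymerises, MRTF-A enters the nucleus, binds serum response factor (SRF) and switches on genes whose promoters carry the CArG box, among them actins, actin-binding proteins and smooth muscle contractile genes. MRTF-A also has a SAP domain, a DNA-binding motif that has been linked to genes regulated without SRF.

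Total estimated counts ran between 13968829 and 20672111 in the 6 libraries. Plate replicates differed by more than sampling noise, with a mean chi-square per gene of 2.57 to 7.83. Groups follow the titles; a separate genotype field named another line in 4 of the 6 libraries and in 16 of the 24. On the first principal component of the 12 plate libraries, which held 58.5% of the variance, the dSRF libraries lay at 95.3 to 103, and the other 9 libraries at -35.1 to -31.9. AXL, which marks this cell line, was at 830.5 to 917 CPM in dSRF and 1707 to 1947 CPM in control, and the mesenchymal filament gene VIM at 1119 to 1299 CPM in dSRF and 1389.6 to 1471 CPM in control, where CPM is each gene's count as a share of the scaled library total, per 1e6 counts. CDKN2A, a cell cycle inhibitor known to be deleted in MDA-MB-231, had 0 counts in all 6 libraries.

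The overexpressed gene separated the libraries as titled. MRTFA (ENSG00000196588, chromosome 22, 40410281 to 40636702, hg38) had 3083, 3069 and 3253 CPM in dSRF libraries, against 33.7, 37.1 and 37.7 CPM in control libraries. The groups did not overlap, and the log2 fold change of dSRF over control was 6.44 ± 0.06 (SE, adjusted p = 2.41e-21, edgeR quasi-likelihood test). These counts hold the introduced and the endogenous transcript together. MRTFA was lower in dSRF than in the other MRTF-A lines, with log2 fold changes of -0.55 against WT (mean 4587 CPM) and -1.499 against dSAP (mean 8859 CPM). The call against WT was lost in a fit of all 24 libraries (adjusted p = 0.223).

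Across the 14330 genes tested, 10598 (74.0%) were called different between dSRF and control at an adjusted p under 0.05, of which 5456 (38.1%) were higher and 5142 (35.9%) lower in dSRF. Counts of members in a gene list stand beside these shares. The median log2 fold change of all genes was 0.018. Large changes were mostly rises. At least 2-fold, 1984 genes rose and 1253 fell (13.8% and 8.74%), at least 8-fold 568 rose and 52 fell, and at least 32-fold 250 rose and 7 fell. These sizes are fitted values, which can exceed what the counts bound where a group is near 0. ALX1 had 0 counts in control and a fitted log2 fold change of 6.01. Against a limit of 3 counts over the control group, ALX1 was at least 8.43-fold higher. At most 3 counts in control and at least 1 CPM in dSRF were found in 178 genes, and the reverse in 13. The 3 libraries of each group did not overlap in 10892 genes (76.0%).

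**Figure D1:**
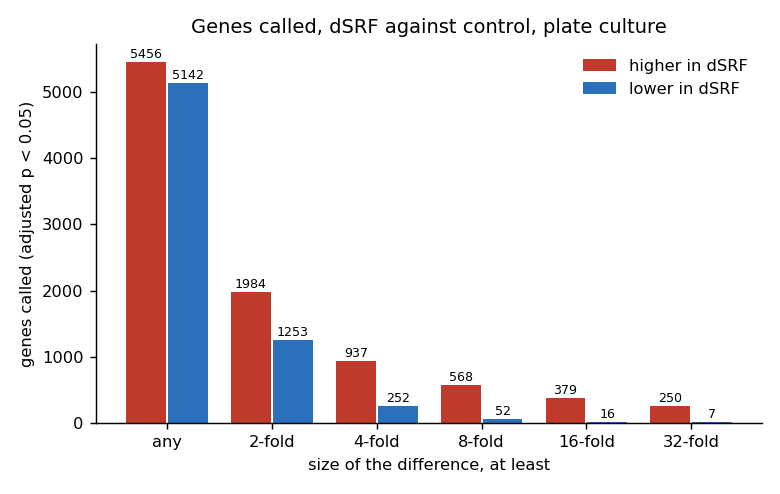
Number of genes called higher and called lower in dSRF than in control, against the smallest size of difference counted. Without a size limit there were 5456 higher and 5142 lower, and at 32-fold or more 250 higher and 7 lower.

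Genes of the factors that work with MRTF-A changed by smaller amounts, and of the 7 tested besides MRTFA, 4 were higher and 3 lower. MRTFB, the paralogue of MRTFA, had 22.1, 21.3 and 23.02 CPM in dSRF libraries, against 37.9, 39.2 and 40.1 CPM in control libraries (log2 fold change -0.82 ± 0.06). ELK1, a ternary complex factor that competes with MRTFs for SRF, had 197, 193 and 192 CPM in dSRF libraries, against 92.00, 98.6 and 96.9 CPM in control libraries (1.02 ± 0.04). ELK3, another ternary complex factor, fell by 0.63, and SCAI, a known inhibitor of MRTF-A, by 0.59 on the log2 scale. None of these 4 genes had overlapping groups.

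SRF, itself a known target of the pathway, had 118, 113 and 129 CPM in dSRF libraries, against 109, 108 and 118 CPM in control libraries. These groups overlapped, and the log2 fold change of 0.11 ± 0.05 (adjusted p = 0.0446) lost its call without dSRF 3 (adjusted p = 0.293), without control 1 (0.151), without control 2 (0.14) or in a fit of all 24 libraries (0.284). Against the other MRTF-A lines SRF was lower in dSRF, by a log2 fold change of -1.73 ± 0.05 against WT (mean 399.8 CPM) and -1.49 ± 0.05 against dSAP (mean 339 CPM).

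The promoters of SRF, of filamin A (FLNA), an actin crosslinker, and of smooth muscle gamma actin (ACTG2) are shown because they carry the element through which SRF is known to act. Each runs from 250 bases before to 50 bases after the RefSeq start site in GRCh38.p14, 5′ to 3′ on the gene's strand, with CArG boxes in capitals. The windows are SRF (chr6:43171019-43171318, plus strand), FLNA (chrX:154374585-154374884, minus strand) and ACTG2 (chr2:73892758-73893057, plus strand).
SRF: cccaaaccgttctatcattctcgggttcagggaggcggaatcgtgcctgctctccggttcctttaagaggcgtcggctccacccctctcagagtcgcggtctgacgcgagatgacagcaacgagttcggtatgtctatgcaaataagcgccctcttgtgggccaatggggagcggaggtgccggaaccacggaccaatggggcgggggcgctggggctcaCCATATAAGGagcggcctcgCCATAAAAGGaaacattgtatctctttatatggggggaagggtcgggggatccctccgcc
FLNA: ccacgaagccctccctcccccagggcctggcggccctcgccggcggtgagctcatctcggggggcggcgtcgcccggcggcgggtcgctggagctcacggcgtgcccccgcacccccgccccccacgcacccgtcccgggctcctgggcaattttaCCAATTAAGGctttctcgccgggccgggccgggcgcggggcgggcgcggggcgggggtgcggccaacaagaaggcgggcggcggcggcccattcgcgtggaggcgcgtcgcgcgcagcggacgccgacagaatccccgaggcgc
ACTG2: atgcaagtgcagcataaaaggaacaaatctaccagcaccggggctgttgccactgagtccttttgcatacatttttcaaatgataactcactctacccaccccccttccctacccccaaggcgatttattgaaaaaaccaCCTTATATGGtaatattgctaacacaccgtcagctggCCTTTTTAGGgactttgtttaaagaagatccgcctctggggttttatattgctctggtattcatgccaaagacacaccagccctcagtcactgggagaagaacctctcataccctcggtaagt
The SRF and ACTG2 windows held 2 CArG boxes each and the FLNA window 1. Of all tested genes with a window, 10521, 1.12% held a CArG box on either strand. Among cytoskeletal targets it was found in 5 of 29 windows (17.2%), of ACTG1, FLNA, TPM4, CNN2 and FHL2, and among smooth muscle genes in 4 of 11 (36.4%), of ACTG2, ACTC1, MYL7 and MYLK.

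Cytoskeletal MRTF/SRF targets were split in direction against control. Of 32 tested members, 9 were higher and 15 lower in dSRF, with a median log2 fold change of -0.08. Vinculin (VCL), which links actin to adhesions, had 595, 601 and 635 CPM in dSRF libraries, against 611, 613 and 635 CPM in control libraries and was not called (-0.02 ± 0.04, adjusted p = 0.618). MYL9, a myosin regulatory light chain, had 115, 133 and 197 CPM in dSRF libraries, against 143, 142 and 139 CPM in control libraries, with dSRF 3 above and dSRF 1 and 2 below all control libraries. MYL9 was not called (0.08 ± 0.17, adjusted p = 0.71), and without dSRF 3 it was called lower (-0.19, adjusted p = 0.0232). FLNA was not called either (3115 to 3449 CPM in dSRF and 2966 to 3279 CPM in control, adjusted p = 0.328).

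Members that rose included CALD1, an actin and tropomyosin binding protein, with 446, 447 and 436 CPM in dSRF libraries, against 202, 205 and 210.2 CPM in control libraries (1.11 ± 0.03). PDLIM7, an actin-associated LIM protein, rose by 0.68 on the log2 scale. Members that fell included FHL1, a LIM-domain protein of muscle, with 8.10, 7.38 and 9.61 CPM in dSRF libraries, against 50.8, 70.02 and 66.5 CPM in control libraries (-2.88 ± 0.14). TPM1, a tropomyosin, fell by 1.12, TAGLN2, a relative of TAGLN, by 1.04, FBLIM1, a filamin-binding protein, by 1.08, and LIMA1, which stabilises actin filaments, by 0.88. None of these 7 genes had overlapping groups.

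The cytoplasmic actins ACTB and ACTG1 were both lower, and their near-identical sequences make the counts of each uncertain. ACTB had 3894, 4023 and 4971 CPM in dSRF libraries, against 5534, 5449.6 and 5672 CPM in control libraries (-0.37 ± 0.08, adjusted p = 0.000549). Its call was lost when all 24 libraries were fitted together (adjusted p = 0.0859). ACTG1, named after its values were seen, had 1089, 1175 and 1654 CPM in dSRF libraries, against 2899, 2695 and 2866 CPM in control libraries (-1.11 ± 0.13). In both genes dSRF 3 was the dSRF library nearest to control.

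Against the other MRTF-A lines the same list lay in 1 direction. All 32 tested members were lower in dSRF than in WT, with a median of -1.58, where 35.3% of all genes were lower. Against dSAP, 29 were lower and none higher, with a median of -1.03, where 36.1% of all genes were lower. Set against the same control libraries, WT had 29 members higher and 3 lower, where 26.5% and 27.0% of all genes were, and dSAP 28 higher and 1 lower, where 25.3% and 23.5% of all genes were. Vinculin, not called against control, was lower in dSRF than in WT by a log2 fold change of -1.56 ± 0.04, and MYL9 by -3.81 ± 0.18.

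**Figure D2:**
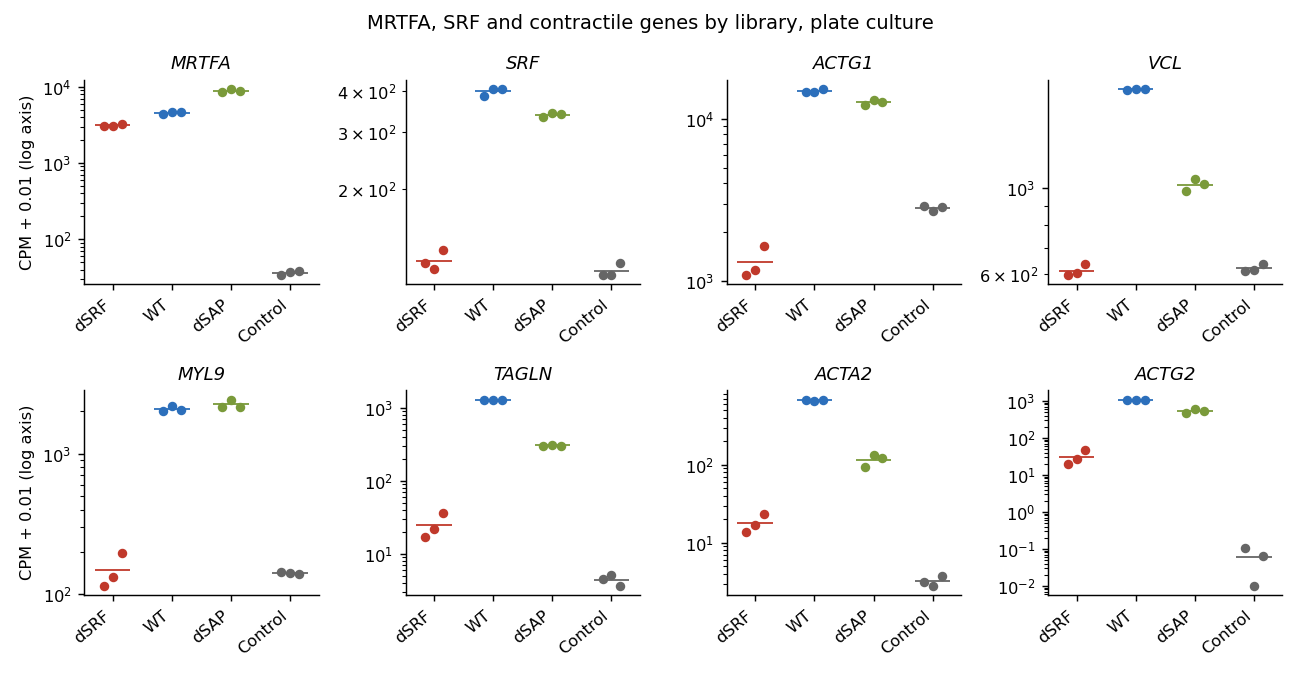
CPM in each plate library (log axis, 0.01 CPM added) of MRTFA, SRF and 6 actin, adhesion and contractile genes, with the lines ordered dSRF, WT, dSAP and control. MRTFA lay between 3069 and 3253 CPM in dSRF libraries, against 33.7 to 37.7 CPM in control libraries, while SRF in dSRF (113 to 129 CPM) lay close to control (108 to 118 CPM).

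Smooth muscle contractile genes were mostly higher in dSRF than in control, at low levels. Of 12 tested members, 8 were higher and 3 lower, with a median log2 fold change of 2.51, or 1.86 with genes at 0 in control set to their bound. The number higher was 5 when only the dSRF and control libraries were fitted. On matrigel 4 of the 12 were higher and 2 lower, with a median of 0.625, where 35.1% and 31.3% of all genes were. Without the matrigel library titled dSRF 1, 3 were higher and 3 lower there, with a median of -0.039. All genes were then higher in 37.2% and lower in 35.6%. TAGLN (SM22), an actin-binding protein of smooth muscle, had 17.2, 21.99 and 35.9 CPM in dSRF libraries, against 4.60, 5.15 and 3.67 CPM in control libraries (2.53 ± 0.30). ACTA2, smooth muscle alpha actin, had 13.9, 16.7 and 23.7 CPM in dSRF libraries, against 3.14, 2.79 and 3.78 CPM in control libraries (2.50 ± 0.32). ACTG2 had 19.5, 27.3 and 46.6 CPM in dSRF libraries, against 0.0939, 0 and 0.0524 CPM in control libraries, the control values being 3 counts in all. In these 3 genes the groups did not overlap and dSRF 3 was the highest library.

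Not all members shared this pattern. CNN1, calponin, an inhibitor of contraction, had 0.607, 0.338 and 0.901 CPM in dSRF libraries, against 0.235, 0.31 and 0.892 CPM in control libraries, and the groups overlapped (adjusted p = 0.395). MYLK, the kinase of myosin light chains, had 70.9, 74.1 and 77.9 CPM in dSRF libraries, against 216, 186 and 228 CPM in control libraries (-1.498 ± 0.07). SMTN, smoothelin, fell by 0.76 and TNNT1, a troponin of slow skeletal muscle, by 0.72. All 12 members were lower in dSRF than in WT (median -4.35), where 35.3% of all genes were. Against dSAP all 12 were lower too (median -3.63), where 36.1% were. A member with few counts in dSRF and control could enter the test through WT or dSAP, where it was higher. The count filter therefore partly fixes these counts. TAGLN averaged 25.04 CPM in dSRF, 1282 CPM in WT and 305 CPM in dSAP.

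The dSRF libraries differed in these genes, as shown by 5 genes chosen after the values were seen, with at most 3 counts in control and at least 5 CPM in dSAP (MYL7, GARIN1B, ACTC1, ACTG2 and ALX1). As a percent of the mean dSAP level, they had a median of 3.92% in dSRF 1 (range 3.24% to 4.71%), 5.48% in dSRF 2 (4.17% to 7.99%) and 9.25% in dSRF 3 (8.28% to 10.9%). Of the 6 genes chosen in the same way from WT (MYL7, GARIN1B, POU2F3, KCNMB1, ACTC1 and ACTG2), the median percent of the mean WT level was 2.84% in dSRF 1 (0.307% to 11.2%), 3.10% in dSRF 2 (0.920% to 12.8%) and 7.22% in dSRF 3 (0.449% to 27.2%), with KCNMB1 lowest in each library. On matrigel 9 genes were chosen in the same way from dSAP. Their median percent of the mean matrigel dSAP level was 3.20% in dSRF 1 (0% to 131%), 0.175% in dSRF 2 (0% to 42.4%) and 0.796% in dSRF 3 (0% to 43.4%). In plates ALX1, a homeobox factor, averaged 0.448 CPM in dSRF and 7.66 CPM in dSAP and had 0 counts in WT and control. Whether RNA or cells of another line take part in the contractile values of the dSRF libraries was not tested.

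A set of 88 genes (0.614% of those tested) had 0 counts in all control libraries and averaged at least 1 CPM in dSRF, and 4 genes (0.0279%) had the reverse. That rule used this contrast, so the levels are a description. Of the 88, 81 had a symbol, 77 were protein coding and 15 lay on chromosome 1. Their mean dSRF levels ran between 1.02 and 842 CPM, with a median of 2.43 CPM. In the lines the rule did not use, 33 of the 88 also had 0 counts in WT and dSAP, 5 averaged at least 1 CPM in WT and 4 in dSAP. On matrigel, in libraries the rule did not use, 82 were called higher in dSRF than in control, where 35.1% of all genes were, and 81 without the matrigel library titled dSRF 1, where 37.2% were.

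IGFL1 (chromosome 19, 46229752 to 46231243, hg38), a secreted protein related to insulin-like growth factors, was the highest of the set. It had 836, 897 and 793 CPM in dSRF libraries and 0 counts in every WT, dSAP and control library. Against a limit of 3 counts over the control group, IGFL1 was at least 15858-fold higher in dSRF. CYP4B1, a cytochrome P450 enzyme, had 134, 131 and 128 CPM in dSRF libraries and 0 counts in the other 3 lines (at least 2465-fold higher than control). NECAB1, a neuronal calcium-binding protein, had 46.1, 45.1 and 45.9 CPM in dSRF libraries and 0 counts in control (at least 860.1-fold higher). The dSRF libraries lay close together in all 3 genes.

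Others of the 15 largest rises were KLHDC7A, a kelch-domain gene, with a mean of 39.2 CPM in dSRF, and SLC34A2, a phosphate transporter, with 22.6 CPM. BMP2, a bone morphogenetic protein ligand, had 18.7, 15.2 and 16.5 CPM in dSRF libraries and 0 counts in control (at least 316-fold higher). FOXA1, a pioneer factor of luminal breast epithelium, had 14.3, 12.5 and 12.5 CPM in dSRF libraries and 0 counts in control (at least 246-fold higher). XAGE2, a cancer-testis antigen, averaged 15.3 CPM, MAPK4, an atypical MAP kinase, 15.1 CPM, SLAMF1, a lymphocyte receptor, 13.01 CPM, KCNK1, a potassium channel, 12.8 CPM and XCR1, a chemokine receptor, 12.2 CPM in dSRF, all with 0 counts in control. MT1B, a metallothionein with near-identical relatives and therefore uncertain, averaged 17.4 CPM.

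**Figure D3:**
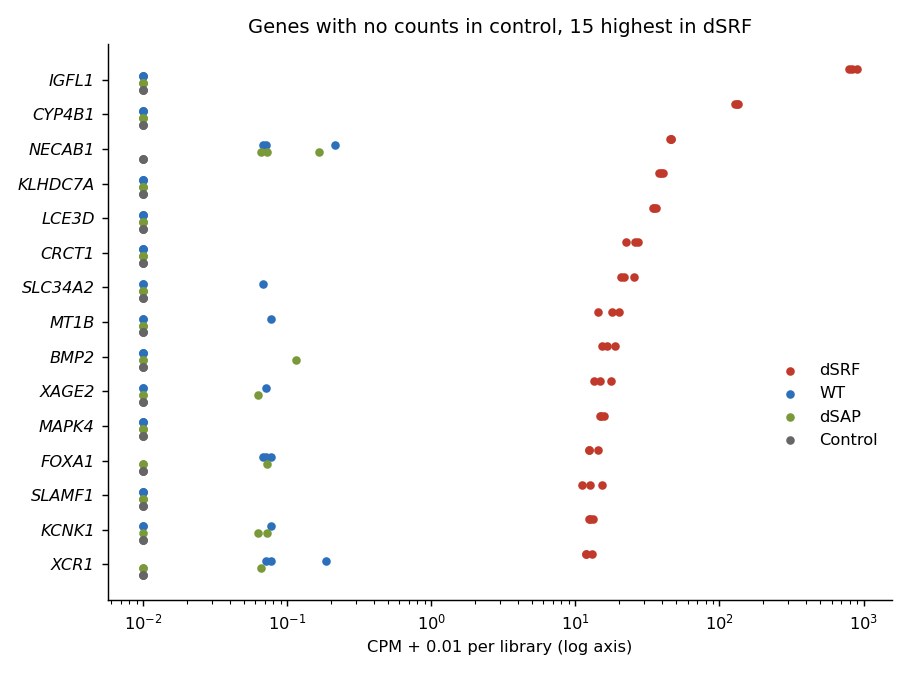
CPM in each plate library (log axis, 0.01 CPM added) of the 15 genes with 0 counts in control that were highest in dSRF, coloured by line. The dSRF points of each gene lie close together, IGFL1 highest at 793 to 897 CPM, and every control point lies at 0.

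Further genes of the set, named after their values were seen, included enzymes of steroid synthesis, HSD3B1 (mean 9.06 CPM in dSRF) and the aromatase CYP19A1 (8.32 CPM). The transcription factors SOX4 and PROX1 averaged 6.23 and 2.99 CPM, the protease inhibitor SLPI 5.17 CPM, the drug exporter ABCB1 2.18 CPM, the cytokine IL36G 1.93 CPM and the ligand WNT5A 1.32 CPM. Each had 0 counts in control.

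The promoter windows of IGFL1 (chr19:46229492-46229791, plus strand) and of trichohyalin, TCHH (chr1:152115395-152115694, minus strand), a protein of hair follicles and the cornified envelope, are shown as examples of genes read in dSRF and not in control. Both are RefSeq windows in GRCh38.p14 as above, with TGANTCA, the binding motif of AP-1, in capitals.
IGFL1: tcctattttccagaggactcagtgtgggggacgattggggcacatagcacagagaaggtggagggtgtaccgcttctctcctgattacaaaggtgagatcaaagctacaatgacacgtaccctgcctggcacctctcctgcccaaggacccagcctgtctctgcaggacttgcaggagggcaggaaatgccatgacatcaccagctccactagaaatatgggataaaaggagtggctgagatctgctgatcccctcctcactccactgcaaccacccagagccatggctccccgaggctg
TCHH: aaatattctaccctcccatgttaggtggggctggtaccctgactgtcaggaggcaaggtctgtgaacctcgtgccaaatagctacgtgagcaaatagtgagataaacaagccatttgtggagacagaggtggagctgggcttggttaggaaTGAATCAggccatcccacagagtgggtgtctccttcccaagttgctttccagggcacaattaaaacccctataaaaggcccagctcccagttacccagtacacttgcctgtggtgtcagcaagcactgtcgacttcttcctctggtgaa
TCHH was picked as an example because its window holds the motif. It held 1 TGANTCA and IGFL1 none. On either strand the motif was found in 7 of 59 windows of the 88 genes (11.9%) and in 4.69% of those of all tested genes. A CArG box was found in 1 of the 59.

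The epidermal differentiation complex, a cluster of cornified envelope and S100 genes on chromosome 1 (151982915 to 153632039, hg38), held several of the largest rises. The region was chosen after its values were seen. Of its 17 tested protein-coding genes, 14 were higher and 1 lower in dSRF than in control, with a median log2 fold change of 4.50. Against WT 15 were higher and against dSAP 16, where 37.3% and 37.0% of all genes were. LCE3D, CRCT1, TCHH, LCE3A, PRR9, S100A14 and CRNN had at most 3 counts in control. They passed the count filter through the dSRF libraries, and members with few counts in every line were not tested. The filter therefore partly fixes these counts and the median. LCE3D and LCE3A, late cornified envelope proteins, averaged 35.4 and 1.83 CPM in dSRF, CRCT1 25.2 CPM, TCHH 5.02 CPM and PRR9 1.63 CPM, and all 5 had 0 counts in control. FLG, filaggrin, a major protein of the same cluster, was lower, with a mean of 26.0 CPM in dSRF and 45.4 CPM in control (-0.79 ± 0.09).

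S100 genes encode small calcium-binding proteins, most of them in that cluster. Of 10 tested, 8 were higher and none lower, with a median log2 fold change of 1.35. Against WT 9 were higher and against dSAP 10, where 37.3% and 37.0% of all genes were. All tested members lie in that region and were counted there as well. These counts therefore repeat part of its result and share its limits. S100A3, found in hair cuticle, had 391, 403 and 361 CPM in dSRF libraries, against 7.79, 6.83 and 10.6 CPM in control libraries (5.50 ± 0.10). S100A2, of basal epithelium, had 301, 337 and 293 CPM in dSRF libraries, against 13.99, 8.01 and 15.5 CPM in control libraries (4.61 ± 0.15). S100A5 rose by 5.88, S100A13 by 1.502 and S100A4, known for its tie to cell motility, by 1.19 on the log2 scale. S100A6 and S100A10 had overlapping groups and were not called (adjusted p = 0.354 and adjusted p = 0.678).

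Keratins, the intermediate filaments of epithelia, were mostly higher in both classes, with close relatives making single keratins uncertain. KRT8 had 4284, 4236 and 4119.5 CPM in dSRF libraries, against 428, 416 and 439 CPM in control libraries (3.30 ± 0.04). Its partner KRT18 had 2400.3, 2442 and 2173 CPM in dSRF libraries, against 259.8, 235 and 263 CPM in control libraries (3.21 ± 0.06), and KRT19, of ducts, rose by 2.60, while KRT7 fell by 0.50 and KRT80 by 0.65. Of 7 tested simple-epithelium keratins, 5 were higher and 2 lower, and 3 were higher without control 1, without control 3 or without dSRF 3. All 7 were also higher than control in WT and 6 in dSAP, where 26.5% and 25.3% of all genes were. Against WT 3 were higher and 3 lower in dSRF, where 37.3% and 35.3% were. Against dSAP 3 were higher and 3 lower, where 37.0% and 36.1% were.

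Of 11 basal and stress keratins only 4 had enough counts to be tested, and all 4 were higher in dSRF. They summed to 1.24 to 1.36 CPM in control libraries. A member near 0 in control could enter the test only through a line where it was higher. All 4 were also higher than control in WT and in dSAP, where 26.5% and 25.3% of all genes were. KRT16, induced in stressed epidermis, had 142, 138 and 137 CPM in dSRF libraries, against 0.0939, 0.186 and 0 CPM in control libraries (10.50 ± 0.16). KRT17, of basal epithelium, had 42.4, 46.1 and 49.8 CPM in dSRF libraries, against 0.0469, 0.186 and 0 CPM in control libraries (9.21 ± 0.20), and KRT15, a basal keratin, rose by 5.95. Against WT, KRT16 and KRT15 were higher in dSRF (6.92 and 5.15), while KRT17 was lower (-2.38, WT mean 240.5 CPM). KRT17 was not called against dSAP (0.12, adjusted p = 0.14, same edgeR test).

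Epithelial junction genes were mostly higher. Of 20 tested, 13 were higher and 4 lower, with a median of 0.71. Desmoplakin (DSP), which anchors keratins to desmosomes, had 1003, 1009 and 986 CPM in dSRF libraries, against 215, 214 and 211 CPM in control libraries (2.23 ± 0.03). Occludin (OCLN), of tight junctions, rose by 2.38, the adhesion molecule EPCAM by 1.78, the claudins CLDN7 and CLDN4 by 1.47 and 0.90, and CRB3, a polarity protein, by 1.89. PKP2, a desmosomal plakophilin, fell by 0.85. CDH1 (E-cadherin), the defining adherens junction gene, was low in both groups, with 0.742, 0.609 and 0.25 CPM in dSRF libraries, against 1.55, 1.49 and 1.99 CPM in control libraries (-1.69 ± 0.35).

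Of 10 tested epithelial transcription regulators, 4 were higher and 4 lower. Besides FOXA1, GRHL1, an epidermal grainyhead factor, rose by 2.72 and ELF3, an epithelial ETS factor, by 0.83. GATA3, a luminal regulator, had 10.5, 9.61 and 8.81 CPM in dSRF libraries, against 25.6, 24.4 and 28.6 CPM in control libraries (-1.45 ± 0.09). TFAP2C, another luminal factor, fell by 1.24, EHF, an epithelial ETS factor, by 1.09, and KLF5 by 0.81.

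Mesenchymal genes were mostly lower. Of 12 tested, 2 were higher and 9 lower, with a median of -0.47. CDH11, a mesenchymal cadherin, had 9.45, 8.05 and 10.5 CPM in dSRF libraries, against 92.98, 94.3 and 103 CPM in control libraries (-3.36 ± 0.07). SNAI2 (Slug), a repressor of epithelial genes, had 5.60, 5.14 and 7.01 CPM in dSRF libraries, against 16.2, 22.4 and 18.3 CPM in control libraries (-1.66 ± 0.13), and its relative SNAI1 (Snail) fell by 2.08. ZEB1, another such repressor, fell by 0.61 and the receptor tyrosine kinase AXL by 1.09. CD44, a hyaluronan receptor, and S100A4 were the 2 that rose, by 0.32 and 1.19.

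**Figure D4:**
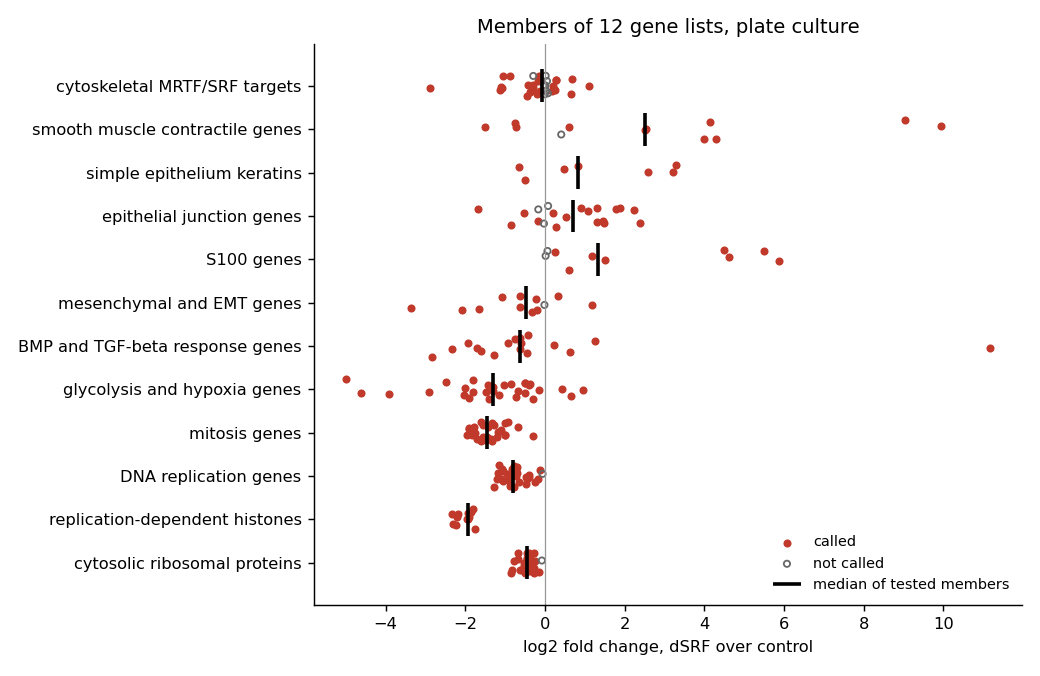
Log2 fold change of dSRF over control for each tested member of 12 gene lists, with called members filled, members not called open and the list's median marked. Medians ran between -1.94 for replication-dependent histones and 2.51 for smooth muscle genes, and the cytoskeletal MRTF/SRF targets centred at -0.08.

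Integrins, the matrix receptors, changed in both directions, 7 higher and 4 lower of 14. ITGB8, which activates latent TGF-beta, had 29.8, 32.4 and 31.8 CPM in dSRF libraries, against 0.375, 0.497 and 0.577 CPM in control libraries (6.01 ± 0.25). ITGB4, of hemidesmosomes, had 982, 911 and 923 CPM in dSRF libraries, against 385, 361 and 389 CPM in control libraries (1.31 ± 0.05). ITGAV, the partner of ITGB8, rose by 1.09, while ITGA2 and ITGA6 fell by 0.49 and 0.43.

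Interstitial matrix and matricellular genes held 6 higher and 9 lower of 21, and basement membrane genes 7 higher and 7 lower of 16. Fibronectin (FN1), a major adhesive protein, had 561, 565 and 612 CPM in dSRF libraries, against 216, 148 and 208 CPM in control libraries (1.60 ± 0.12). Thrombospondin 1 (THBS1), a matricellular protein, had 1239, 1307 and 1448 CPM in dSRF libraries, against 2798, 3285 and 3181 CPM in control libraries (-1.21 ± 0.06). Tenascin C (TNC), a known target of MRTF-A, had 25.03, 32.5 and 51.6 CPM in dSRF libraries, against 17.8, 12.04 and 19.3 CPM in control libraries (1.16 ± 0.28, or 0.80 without dSRF 3). TNC averaged 949.8 CPM in WT, and dSRF lay below it (-4.68 ± 0.24). In the basement membrane the laminin chain LAMC1 fell by 1.01.

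Matrix proteases and their inhibitors held 9 higher and 5 lower of 16, with a median of 0.78. MMP15, a membrane-type metalloproteinase, had 141, 121 and 144 CPM in dSRF libraries, against 19.1, 20.5 and 16.9 CPM in control libraries (2.85 ± 0.10). MMP1, interstitial collagenase, had 7.22, 6.83 and 6.61 CPM in dSRF libraries, against 0.141, 0.124 and 0.105 CPM in control libraries (5.72 ± 0.38). The plasminogen activator PLAT rose by 1.52. MMP14, which cleaves collagen at the cell surface, fell by 0.88 and the inhibitor TIMP2 by 0.76.

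Glycolysis and hypoxia genes were mostly lower. Of 32 tested, 29 were lower and 3 higher in dSRF than in control, with a median log2 fold change of -1.29, where 35.9% of all genes were lower. Carbonic anhydrase 9 (CA9), a standard target of the hypoxia factor HIF1, had 0.0675, 0.406 and 0.501 CPM in dSRF libraries, against 12.3, 7.88 and 12.7 CPM in control libraries (-4.98 ± 0.38). ALDOC, a glycolytic aldolase, had 1.08, 1.15 and 1.90 CPM in dSRF libraries, against 34.5, 32.5 and 37.03 CPM in control libraries (-4.60 ± 0.26). PDK1, which keeps pyruvate out of mitochondria, had 22.8, 22.4 and 27.1 CPM in dSRF libraries, against 103, 95.2 and 99.2 CPM in control libraries (-2.03 ± 0.08). In each of the 3 genes every dSRF library lay below every control library.

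Falls ran through the steps of glycolysis. The glucose transporter SLC2A3 fell by 1.30, hexokinase 1 (HK1) by 0.84, the isomerase GPI by 1.14, the phosphofructokinases PFKL and PFKP by 1.40 and 1.03, and the mutase PGAM1 by 0.73 on the log2 scale. EGLN3, an oxygen-sensing prolyl hydroxylase, fell by 2.92 and CA12, another carbonic anhydrase, by 3.91. The 3 members that rose, named after their values were seen, were ADM, the vasodilator adrenomedullin (0.95 ± 0.05), P4HA2, a collagen prolyl hydroxylase (0.65 ± 0.05), and VEGFA, the angiogenic factor (0.42 ± 0.09). Against WT, 29 of the 32 were lower and none higher, where 35.3% of all genes were lower. Against dSAP 26 were lower and 5 higher, where 36.1% and 37.0% of all genes were. On matrigel 27 were lower and 3 higher, with a median of -0.77, where 31.3% and 35.1% of all genes were.

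**Figure D5:**
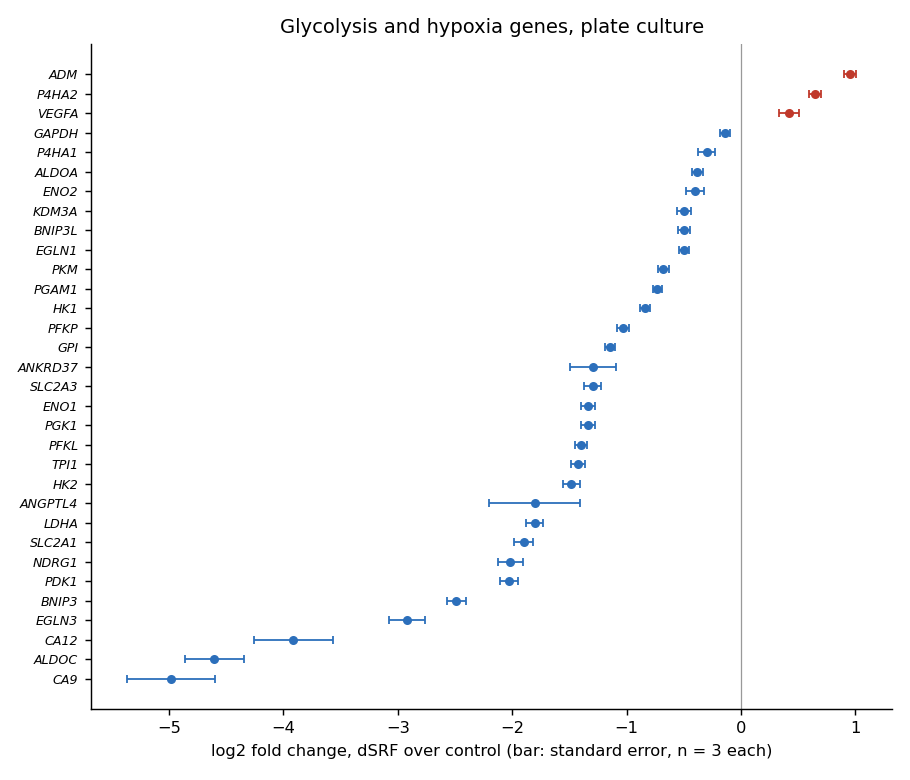
Log2 fold change of dSRF over control, with its standard error (n = 3 each), for the 32 tested glycolysis and hypoxia genes, falls in blue and rises in red. CA9, ALDOC and CA12 lie lowest, at -4.98, -4.60 and -3.91, and ADM, P4HA2 and VEGFA lie above 0.

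The RefSeq windows of CA9 (chr9:35673678-35673977, plus strand) and ALDOC (chr17:28576846-28577145, minus strand) in GRCh38.p14 are shown because these genes fell furthest in the list. Capitals mark ACGTG, the core of the hypoxia response element, on either strand.
CA9: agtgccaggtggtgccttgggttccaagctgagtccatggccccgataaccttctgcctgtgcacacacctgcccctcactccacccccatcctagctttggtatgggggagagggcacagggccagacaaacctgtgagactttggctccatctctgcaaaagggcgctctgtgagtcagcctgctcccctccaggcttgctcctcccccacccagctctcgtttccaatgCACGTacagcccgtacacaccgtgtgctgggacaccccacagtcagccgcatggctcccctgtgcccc
ALDOC: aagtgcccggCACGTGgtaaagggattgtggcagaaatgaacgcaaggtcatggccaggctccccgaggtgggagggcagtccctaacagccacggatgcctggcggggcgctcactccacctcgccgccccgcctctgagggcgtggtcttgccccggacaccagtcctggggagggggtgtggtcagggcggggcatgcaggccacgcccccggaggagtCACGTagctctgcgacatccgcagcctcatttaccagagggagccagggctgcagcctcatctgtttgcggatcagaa
ACGTG was found in 14 of 28 windows of glycolysis and hypoxia genes (50%) and in 26.5% of those of all tested genes.

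All 30 tested mitosis genes were lower in dSRF, with a median log2 fold change of -1.46. PLK1, a mitotic kinase, had 27.1, 26.1 and 30.3 CPM in dSRF libraries, against 95.98, 106 and 102 CPM in control libraries (-1.86 ± 0.06). TOP2A, the topoisomerase that separates chromosomes, had 178, 197 and 214 CPM in dSRF libraries, against 663, 644 and 677 CPM in control libraries (-1.75 ± 0.05). The kinesins KIF11 and KIF2C fell by 1.71 and 1.79, the kinetochore proteins CENPE and NDC80 by 1.61 and 1.47, and PRC1, of the spindle midzone, by 1.46. All 30 were lower than in WT (median -0.98), where 35.3% of all genes were. Against dSAP all 30 were lower too (median -1.14), where 36.1% were. Set against the same control libraries, WT was lower in 28 members, where 27.0% of all genes were, and dSAP in 25, where 23.5% were.

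The RefSeq window of PLK1 (chr16:23678639-23678938, plus strand) in GRCh38.p14 is shown with TTTGAA, the core of the cell cycle genes homology region, in capitals.
PLK1: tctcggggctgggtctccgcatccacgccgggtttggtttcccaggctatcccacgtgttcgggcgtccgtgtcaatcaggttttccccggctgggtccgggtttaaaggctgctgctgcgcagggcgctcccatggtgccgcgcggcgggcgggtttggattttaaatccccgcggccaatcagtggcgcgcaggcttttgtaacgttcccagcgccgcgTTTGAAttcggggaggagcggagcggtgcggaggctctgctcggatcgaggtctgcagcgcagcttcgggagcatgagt
TTTGAA was found on either strand in 19 of 25 windows of mitosis genes (76%) and in 9.69% of those of all tested genes.

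DNA replication genes and replication-dependent histones were lower as well. Of 32 tested replication genes, 31 were lower, with a median of -0.80. WT was lower than control in 25 of them and dSAP in 18, where 27.0% and 23.5% of all genes were. In dSRF 22 were lower and 3 higher than in WT, where 35.3% and 37.3% of all genes were. Against dSAP 27 were lower and 1 higher, where 36.1% and 37.0% were. RRM1, a ribonucleotide reductase subunit, had 103, 105 and 116 CPM in dSRF libraries, against 242, 244 and 247 CPM in control libraries (-1.17 ± 0.04). The polymerase POLE fell by 1.20 and the sliding clamp PCNA by 0.87. All 12 tested histone genes were lower, with a median of -1.94, and near-identical copies make single histone genes uncertain. All 12 were also lower than control in WT and in dSAP, where 27.0% and 23.5% of all genes were. Against WT and dSAP all 12 were lower in dSRF, where 35.3% and 36.1% were. H1-2, a linker histone, had 118, 127 and 129.8 CPM in dSRF libraries, against 453, 439.7 and 465 CPM in control libraries (-1.86 ± 0.04).

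Of 19 tested cyclins, cyclin-dependent kinases and inhibitors, 14 were lower and 4 higher, with a median of -0.61. CCNA2, the S-phase cyclin, had 46.4, 48.5 and 57.4 CPM in dSRF libraries, against 181, 181 and 184 CPM in control libraries (-1.83 ± 0.06). The mitotic kinase CDK1 fell by 1.59, CCNB1, its cyclin, by 1.00, and CDKN2C, an inhibitor of CDK4 and CDK6, by 2.16. CDKN1A (p21), an inhibitor of the cell cycle, had 265, 288 and 283 CPM in dSRF libraries, against 130.2, 123 and 132 CPM in control libraries (1.12 ± 0.05).

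Targets of p53, which MDA-MB-231 is known to carry in mutant form, held 12 higher and 7 lower of 19. FAS, a death receptor, had 62.9, 63.8 and 57.7 CPM in dSRF libraries, against 2.91, 2.48 and 2.73 CPM in control libraries (4.49 ± 0.09). BTG2, an antiproliferative gene, rose by 3.05, TP53I3, an oxidoreductase, by 3.01, and the repair gene DDB2 by 1.78.

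Genes of translation and respiration shifted by small amounts. Of 35 tested cytosolic ribosomal protein genes, 34 were lower, with a median of -0.46. WT was lower than control in 30 of them and dSAP in 32, where 27.0% and 23.5% of all genes were. In dSRF 28 were lower and 2 higher than in WT, where 35.3% and 37.3% of all genes were. Against dSAP 15 were lower and 3 higher, where 36.1% and 37.0% were. RPS4X, a small-subunit protein, had 297, 316 and 313 CPM in dSRF libraries, against 559, 559 and 563 CPM in control libraries (-0.86 ± 0.03). Of 31 nuclear respiratory chain genes, 20 were lower and none higher, with a median of -0.23. The complex III subunit UQCRFS1 fell by 0.93 and the complex II subunit SDHA by 0.60. Of 13 genes of the mitochondrial genome, 1 was called. Within groups these genes varied, as in MT-CO1, a cytochrome oxidase subunit, with 2901, 1911 and 1515 CPM in dSRF libraries, against 3082, 2867 and 1383 CPM in control libraries (adjusted p = 0.599).

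BMP and TGF-beta response genes were mostly lower, 13 lower and 4 higher of 17, with a median of -0.64. ID1, a direct BMP target that blocks differentiation factors, had 12.01, 11.98 and 11.26 CPM in dSRF libraries, against 79.8, 83.8 and 88.8 CPM in control libraries (-2.84 ± 0.09). The ligand BMP4 fell by 1.62, the activin subunit INHBA by 2.33 and the TGF-beta target TGFBI by 1.93, while the antagonist NOG rose by 1.25. ID1 was higher in dSRF than in WT (mean 5.26 CPM, 1.16 ± 0.12) and lower than in dSAP (mean 16.04 CPM, -0.46 ± 0.10), and both calls were lost in the fit of all 24 libraries (adjusted p = 0.0692 and 0.419).

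YAP/TEAD targets held 7 higher and 10 lower of 22, and 4 higher when all 24 libraries were fitted together. ANKRD1, a nuclear and sarcomeric protein, had 757, 785 and 706 CPM in dSRF libraries, against 199, 248 and 213 CPM in control libraries (1.77 ± 0.07). NUAK2, a kinase related to AMPK, had 116, 109 and 117 CPM in dSRF libraries, against 9.72, 8.26 and 8.39 CPM in control libraries (3.69 ± 0.06). The matricellular genes CCN1 and CCN2 rose by 0.40 and 0.27, and both calls were lost in the fit of all 24 libraries (adjusted p = 0.116 and 0.547). In the EGF family, with 3 higher and 7 lower of 13, the receptor ERBB4 had 2.02, 1.89 and 2.20 CPM in dSRF libraries and 0 counts in control, and the ligand HBEGF fell by 0.98.

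Immediate early genes, which respond to growth factors within minutes, held 11 higher and 6 lower of 20, and 3 lower without control 3. DUSP1, a phosphatase that switches off MAP kinases, had 158, 150.0 and 149 CPM in dSRF libraries, against 11.6, 17.1 and 9.54 CPM in control libraries (3.59 ± 0.15). FOSB, an AP-1 subunit, had 10.8, 9.54 and 10.2 CPM in dSRF libraries, against 0.657, 0.683 and 0.42 CPM in control libraries (4.11 ± 0.18). The phosphatases DUSP5 and DUSP6 rose by 1.62 and 1.26, and the stress factor ATF3 by 1.63.

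NF-kB genes were mostly higher, 11 higher and 3 lower of 16. ICAM1, a leukocyte adhesion receptor, had 872, 896 and 843 CPM in dSRF libraries, against 289, 311 and 296 CPM in control libraries (1.54 ± 0.05). TRAF1, a receptor adaptor, rose by 2.59, the subunit RELB by 1.38 and the inhibitor NFKBIA by 1.22, while BCL3, a coregulator, fell by 1.06. Of 17 chemokines and cytokines, 9 were higher and 3 lower. CXCL8, a neutrophil chemokine, had 28.5, 27.3 and 31.1 CPM in dSRF libraries, against 97.4, 87.9 and 95.7 CPM in control libraries (-1.69 ± 0.06), while CSF2 (GM-CSF) rose by 2.49 and LIF by 1.76.

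Interferon response genes held 18 higher and 8 lower of 37. OAS2, an antiviral enzyme, had 35.8, 36.3 and 32.6 CPM in dSRF libraries, against 10.9, 10.4 and 9.91 CPM in control libraries (1.74 ± 0.08). GBP2, a guanylate-binding protein induced by interferon gamma, had 14.3, 17.3 and 19.6 CPM in dSRF libraries, against 71.2, 67.97 and 67.5 CPM in control libraries (adjusted p = 9.9e-13). HERC6 and IFIT3 rose by 1.58 and 1.30, while GBP1 and the viral tether BST2 fell by 1.07 and 0.75.

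Metallothioneins, which bind zinc and copper, and their regulators held 6 higher and 1 lower of 8. MT1X, whose close relatives make it uncertain, had 117, 115 and 93.04 CPM in dSRF libraries, against 8.45, 7.64 and 7.29 CPM in control libraries (3.79 ± 0.10), and the zinc exporter SLC30A1 fell by 0.98. ATF4 and serine synthesis genes held 15 higher and 6 lower of 25, with a median of 0.57. Set against the same control libraries, WT had 22 higher and 2 lower, where 26.5% and 27.0% of all genes were. For dSAP 19 were higher and 1 lower, where 25.3% and 23.5% were. In dSRF 7 were higher and 15 lower than in WT, where 37.3% and 35.3% of all genes were. Against dSAP 13 were higher and 8 lower, where 37.0% and 36.1% were. PSAT1, of serine synthesis, had 237, 245 and 243 CPM in dSRF libraries, against 31.6, 24.3 and 32.3 CPM in control libraries (3.03 ± 0.07). PHGDH, which opens that pathway, rose by 3.41, CHAC1, a glutathione-degrading enzyme, by 2.94, and SHMT2, of mitochondrial folate metabolism, by 1.12. Endoplasmic reticulum chaperones held 10 higher and 8 lower of 19, with HYOU1 up by 0.85 and PDIA6 lower (-0.72 ± 0.04).

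Cholesterol and fatty acid synthesis genes held 16 higher and 13 lower of 31. FADS1, a fatty acid desaturase, had 864, 867 and 854 CPM in dSRF libraries, against 205, 215 and 214 CPM in control libraries (2.03 ± 0.03). SREBF1, a regulator of lipid synthesis, had 179.7, 160.0 and 194 CPM in dSRF libraries, against 932, 867 and 916 CPM in control libraries (-2.34 ± 0.06), and its relative SREBF2 fell by 1.12.

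NRF2 targets held 6 higher and 13 lower of 20. ME1, a malic enzyme, had 21.5, 23.7 and 25.2 CPM in dSRF libraries, against 56.1, 62.3 and 56.1 CPM in control libraries (-1.30 ± 0.07), and the quinone reductase NQO1 rose by 1.23. Lysosomal genes held 16 higher and 7 lower of 27, with progranulin (GRN) at 1106, 1075 and 1056 CPM in dSRF libraries, against 395, 383 and 394 CPM in control libraries (1.47 ± 0.04) and cathepsin B (CTSB) lower (-1.07 ± 0.04). Among 8 aryl hydrocarbon receptor genes, 5 were higher and 2 lower, the receptor AHR itself at -1.09 ± 0.05 and its target CYP1A1 at 2.63 ± 0.20.

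The 15 largest falls, besides those of the hypoxia list, included C1QL1, a secreted C1q-related protein, with 0, 0.135 and 0.15 CPM in dSRF libraries, against 2.91, 3.60 and 3.36 CPM in control libraries (-4.94 ± 0.43). PPFIA4, a liprin scaffold, had 1.21, 1.35 and 2.05 CPM in dSRF libraries, against 39.4, 36.9 and 30.6 CPM in control libraries (-4.49 ± 0.16). PLLP, plasmolipin, a myelin protein, had 0.81, 0.609 and 1.15 CPM in dSRF libraries, against 13.1, 14.2 and 12.6 CPM in control libraries (-3.91 ± 0.18). LGALS12, a galectin, fell by 4.25, the fructose transporter SLC2A5 by 3.92, the collagen COL8A2 by 3.87, SPINK4, a secreted inhibitor of the Kazal type, by 3.85 and the G protein subunit GNG2 by 3.75.

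The other 4 of the 15 are uncertain or low. C4B, BAG6 and PRRC2A lie in the MHC region of chromosome 6, where alternative copies of the region in a reference can split reads. C4B and BAG6 had 0 counts in dSRF and averaged 9.13 and 2.31 CPM in control. PRRC2A had 0.742, 0 and 0 CPM in dSRF libraries, against 4.32, 3.91 and 4.56 CPM in control libraries. RPL21P75, a ribosomal protein pseudogene, had 0 counts in dSRF and averaged 1.74 CPM in control.

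Against WT, 10408 genes (72.6%) were called, 5351 (37.3%) higher and 5057 (35.3%) lower in dSRF. By at least 2-fold, 1878 (13.1%) were higher and 1280 (8.93%) lower. On log2(TPM + 1) values the split was 6143 higher and 3334 lower, with the median of all genes at 0.177 instead of 0.02. Against dSAP, 10474 genes (73.1%) were called, 5298 (37.0%) higher and 5176 (36.1%) lower, of which 1880 (13.1%) and 1251 (8.73%) by at least 2-fold. By comparison, WT against the same control libraries had 3804 genes higher and 3873 lower, and dSAP against them 3620 higher and 3372 lower. IGFL1, CYP4B1, KLHDC7A, LCE3D and CRCT1 were among the 6 largest rises against both lines, with BMP2 the other against WT and SLC34A2 the other against dSAP.

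The 6 largest falls against WT were RPL21P75, KCNMB1, TAGLN, RNF39, SERPINB5 and C12orf54. KCNMB1, a regulatory subunit of a potassium channel, averaged 0.124 CPM in dSRF and 25.2 CPM in WT (-7.62 ± 0.22). TAGLN was lower by a log2 fold change of -5.64 ± 0.20. RNF39 lies in the MHC region and is uncertain, and SERPINB5, a serpin of epithelia, averaged 0.0167 CPM in dSRF and 1.14 CPM in WT. The 6 largest falls against dSAP were PRRC2A, CPA3, GPR183, MYL7, ACTG2 and ALX1. MYL7, an atrial myosin light chain, had 3.91, 5.28 and 11.31 CPM in dSRF libraries, a mean of 121 CPM in dSAP and 0 counts in control (-4.08 ± 0.30 against dSAP).

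On matrigel, dSRF against control gave 5261 genes higher (35.1%) and 4687 lower (31.3%). The matrigel library titled dSRF 1 stood apart, with MRTFA at 0.0671% of its counts, against 0.515% and 0.512% in the other matrigel dSRF libraries. Without it the counts were 5671 higher (37.2%) and 5427 lower (35.6%). All 30 tested mitosis genes were lower on matrigel too, with a median of -2.08. The dSRF effect differed between cultures in 4379 genes, 2197 (14.7%) more positive on matrigel and 2182 (14.6%) more negative, and without that library in 6680 genes, 3027 (19.9%) more positive and 3653 more negative.

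Markers of other cell types were followed. Of the endothelial list, 3 of 8 were tested, 2 higher and 1 lower in dSRF. VWF, von Willebrand factor, had 18.4, 17.7 and 18.1 CPM in dSRF libraries, against 0.0939, 0.248 and 0.367 CPM in control libraries (6.24 ± 0.27), and KDR, a VEGF receptor, rose by 1.77. TEK, an angiopoietin receptor, was lower, with 0.0675, 0.0677 and 0 CPM in dSRF libraries, against 0.329, 0.621 and 0.315 CPM in control libraries. TIE1, its relative, had 1 count over the dSRF libraries and 12 over control. PECAM1 had 14 counts over the dSRF libraries and 21 over control, CDH5 had 5 and 1, and CLDN5 had 0 in both. Of leukocyte markers, PTPRC had 0 counts in both groups, CD14 fell by 1.70 and CSF1R rose by 1.08. Of 4 tested fibroblast markers, 1 was higher and 3 lower. DCN had 0 counts in both groups, PDGFRB fell by 2.81, COL1A2 fell by 1.92 and COL1A1 rose by 1.85. The summed level of the 3 tested endothelial markers was 26.5 to 27.9 CPM in dSRF libraries, against 2.96 to 3.72 CPM in control libraries. The 2 tested leukocyte markers summed to 7.71 to 10.3 CPM in dSRF and 14.2 to 15.8 CPM in control. The 4 tested fibroblast markers summed to 42.4 to 48.6 CPM in dSRF and 56.1 to 61.5 CPM in control. The 4 tested neural markers summed to 184.8 to 191.8 CPM in dSRF and 246.9 to 285.9 CPM in control, with 3 of the 4 lower.

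Changes were spread over the genome. Chromosome medians of the log2 fold change ran between -0.177 on chromosome 13 and 0.188 on chromosome 4. In 153 windows of 20000000 bases with at least 20 tested genes, medians ran between -0.351 on chromosome 13 and 0.485 on the X chromosome.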

How the data were processed

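RNA was prepared from MDA-MB-231 lines with a stranded total RNA kit with ribosomal RNA removal, per the labels' protocols, while another label field names polyA RNA. Reads were processed with FastQC and Salmon 11.3 for hg38, per the submitters' processing notes. No source used here names the transcript annotation. The deposited gene tables hold estimated counts (37247 gene ids, not normalized) and TPM for 24 libraries. Estimated counts as deposited were rounded to whole numbers and tested with edgeR 4.0.16 (R 4.3.3): filterByExpr, TMM factors (0.920 to 1.06 in plate libraries), robust quasi-likelihood fit of the 12 plate libraries in 4 groups (8 residual degrees of freedom), Benjamini-Hochberg adjustment over 14330 genes, called at 0.05. Effects on matrigel used all 24 libraries. CPM are counts per 1e6 after TMM scaling, except the percent-of-dSAP and percent-of-WT values, which use unscaled totals. The biological coefficient of variation was 6.58%. Standard errors are those of the fit and include the spread between libraries. Bounds against a group at 0 used 3 counts over the group and cover counting error only.

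Symbols came from a gene name table (29235 ids matched) and hg38 positions from GENCODE 29. Promoter windows, credited to RefSeq (GRCh38.p14), were matched by symbol. On simulated counts (14016 genes, 200 changed 2-fold), 168 changed genes (84%) and 7 unchanged ones were called. Alternatives were other size factors, no count filter, DESeq2 1.42.0 and limma 3.58.1 on log2(TPM + 1) and log2(TPM + 0.1). Further ones were a replicate block, other library sets and leaving out each library of the groups compared. Replicate numbers were not used to pair samples in the main fit. Genes named were a fixed list, the 15 largest rises and falls among called genes with at least 1 CPM and no overlap, up to 8 members of lowest p per list with any member not called, and the 6 largest rises and falls against WT and dSAP. Some genes this rule names are not reported here. The comparison, members and gene lists were chosen with earlier results of these data known.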

Additional observations from a re-analysis of the deposited data

Results flagged for a closer look

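The effect of dSRF over control was tested for a difference between cultures (edgeR, all 24 libraries) in 53 named genes, those of the fixed list and the largest rises and falls, and 8 were called. As the log2 fold change on matrigel minus that in plates, it was -0.38 for MRTFB, -2.97 for TAGLN, 0.71 for VCL, -3.22 for TNC, 3.18 for CCN1, 2.24 for CCN2, 1.65 for PLLP and 2.24 for SPINK4 (adjusted p = 0.0435). Without the matrigel library titled dSRF 1, which stood apart, 12 genes were called, 7 of them shared with the 8. The differences of the 7 were then -0.41 for MRTFB, -4.17 for TAGLN, 0.75 for VCL, -3.64 for TNC, 2.60 for CCN1, 1.08 for CCN2 and 1.74 for PLLP. SPINK4 lost its call without that library (2.14, adjusted p = 0.0581). The 5 genes called only without it were MRTFA (0.94), MYL9 (-1.36), ID1 (1.03), CA12 (-1.60) and KCNMB1 (-7.40). Among the 7 shared genes, the effect was more negative on matrigel for MRTFB, TAGLN and TNC, and more positive for the other 4, with and without that library.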

How the results depend on the processing

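Between dSRF and control, 9245 to 10979 genes were called under the alternatives that kept every library of both groups (10598 as reported), against WT 9449 to 10774 and against dSAP 9146 to 10881. For each comparison, the plate libraries of the groups compared were left out in turn. Against control 10200 to 10303 genes were then called (5276 to 5351 higher and 4901 to 4954 lower, of which 1987 to 2093 and 1212 to 1325 by at least 2-fold). The ranges were 10012 to 10134 against WT (5131 to 5227, 4860 to 4937, 1853 to 1957 and 1266 to 1362) and 10093 to 10250 against dSAP (5086 to 5188, 4992 to 5083, 1859 to 1950 and 1224 to 1296). A replicate block gave 10619, 10444 and 10501 genes against control, WT and dSAP. Deviations of same-numbered dSRF and control libraries correlated at 0.028, -0.1 and -0.004 over all genes. Replicate 3 had the lowest share of mitochondrial genes in each plate line, at 0.488% in dSRF and 0.398% in control. Whether libraries of the same number share a batch was not tested. The deposited TPM values moved falls most: with log2(TPM + 1) and without a filter, 830 and 831 genes were lower than control by at least 2-fold, 729 and 726 lower than WT, and 823 and 820 lower than dSAP, and 3334, 3344 and 3335 genes were lower than WT in the 3 TPM fits. The difference between cultures covered 6680 genes, 3653 of them more negative on matrigel, without the matrigel library titled dSRF 1. The cause of these moves was not tested. MYL9 against control ran between -0.19 (without dSRF 3) and 0.23 (without dSRF 1). In the fit of all 24 libraries, the calls of MRTFA against WT (adjusted p = 0.223) and of ID1 against WT (0.0692) and dSAP (0.419) were lost. Of 324 gene fold changes followed, 59 values under an alternative lost their call and 1 changed sign with a call. Members with a few counts in a group are limited by depth.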
